A study of Macaca radiata with 6 samples.

Results

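Insulin-like growth factor 1 (IGF1) and the binding proteins IGFBP2, IGFBP4 and IGFBP6 were followed in corpora lutea of the bonnet monkey (Macaca radiata) after injection of prostaglandin F2-alpha (PGF2alpha) or of vehicle. They are 4 of 14133 genes named on the array, and they were read from every probe set of the deposited table whose annotation gave one of these symbols alone, which were 7 of 52865 probe sets, 4 for IGF1 and 1 for each binding protein. The first group held 3 arrays of corpora lutea from female monkeys that received 3 intramuscular injections of PGF2alpha at 59 µg/kg, and the second held 3 arrays from females that received phosphate-buffered saline as vehicle. All injections were given on day 10 of the luteal phase and the gland was taken at 24 h. Neither an age nor a strain is stated, the number of vehicle injections is not stated, and although the labels give 3 monkeys a group, none ties an array to an animal, so errors and p-values measure the spread between arrays. The probes were designed for the rhesus macaque, so a sequence difference between the species can lower the signal of a probe set in all 6 arrays.

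IGF1 is a small secreted hormone that resembles proinsulin and signals through the tyrosine kinase IGF1R, whose adaptors lead to the kinases AKT and MAPK. In the ovary IGF1 enhances the action of gonadotropins on follicle cells and luteal cells, and it can be made by follicle, stromal and immune cells. Most IGF circulates and lies in tissue bound to IGF binding proteins, which hold it away from its receptor until they are cleaved by proteases or release it at the cell surface. IGFBP2 carries an integrin-binding motif, IGFBP4 is known mainly as an inhibitor of IGF action and is the substrate of the pappalysin PAPPA, and IGFBP6 binds IGF2 in preference to IGF1.

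Array medians were 115 to 134 in signal. The ratios of 3-prime to 5-prime control probe sets lay between 1.73 and 1.78 after PGF2alpha and between 1.49 and 2.25 after vehicle for beta-actin, and between 1.39 and 1.68 after PGF2alpha and between 1.41 and 1.73 after vehicle for GAPDH. Hybridisation runs were inferred from the scanner records, by taking arrays with the same recorded clock hour of hybridisation as a run, without use of the date. This placed PGF2alpha replicates 1 and 3 and vehicle replicates 5 and 6 in run 1. It placed PGF2alpha replicate 2 and vehicle replicate 4 in run 2. Of 14 markers of steroidogenic luteal cells 9 were named on the array. All 9 were bright enough to be tested, HSD17B1 through the vehicle arrays alone, which fits the labelled tissue, although CYP11A1, HSD3B1 and LHCGR were not among them. Inhibin alpha (INHA) read 18803 ± 3362 after PGF2alpha and 24576 ± 1935 after vehicle (SD, n = 3 each).

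All members read higher after PGF2alpha than after vehicle on average, by 1.40 to 1.89 times in the deposited linear signals. IGFBP6 had the largest ratio and the dimmest IGF1 probe set the smallest. The RNA came from whole tissue, where a change in the number of cells of a type and a change in RNA per cell cannot be told apart. The 3 PGF2alpha arrays lay above all 3 vehicle arrays in 5 of the 7 probe sets, where 13.0% of all tested probe sets did so. The members were chosen by their higher signal after PGF2alpha in this same comparison. These values are therefore a description, and although the members were part of the fit below, no p-value of a member is used as support. All 7 probe sets were at or above the median of their array on all 6 arrays, and none depended on PGF2alpha arrays alone to pass the brightness filter. Log2 fold changes are given on the scale log2(signal + 40), with standard errors (SE) from a limma fit over 26944 probe sets, and their median over the 7 was 0.58 against -0.03 over all probe sets tested. In that fit 4 of the 7 lay past an adjusted p of 0.05 as higher, namely 1 IGF1 probe set and the 3 binding proteins, where 3.02% of all tested probe sets did and 5.01% passed in either direction. Nothing is read from this count.

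**Figure D1:**
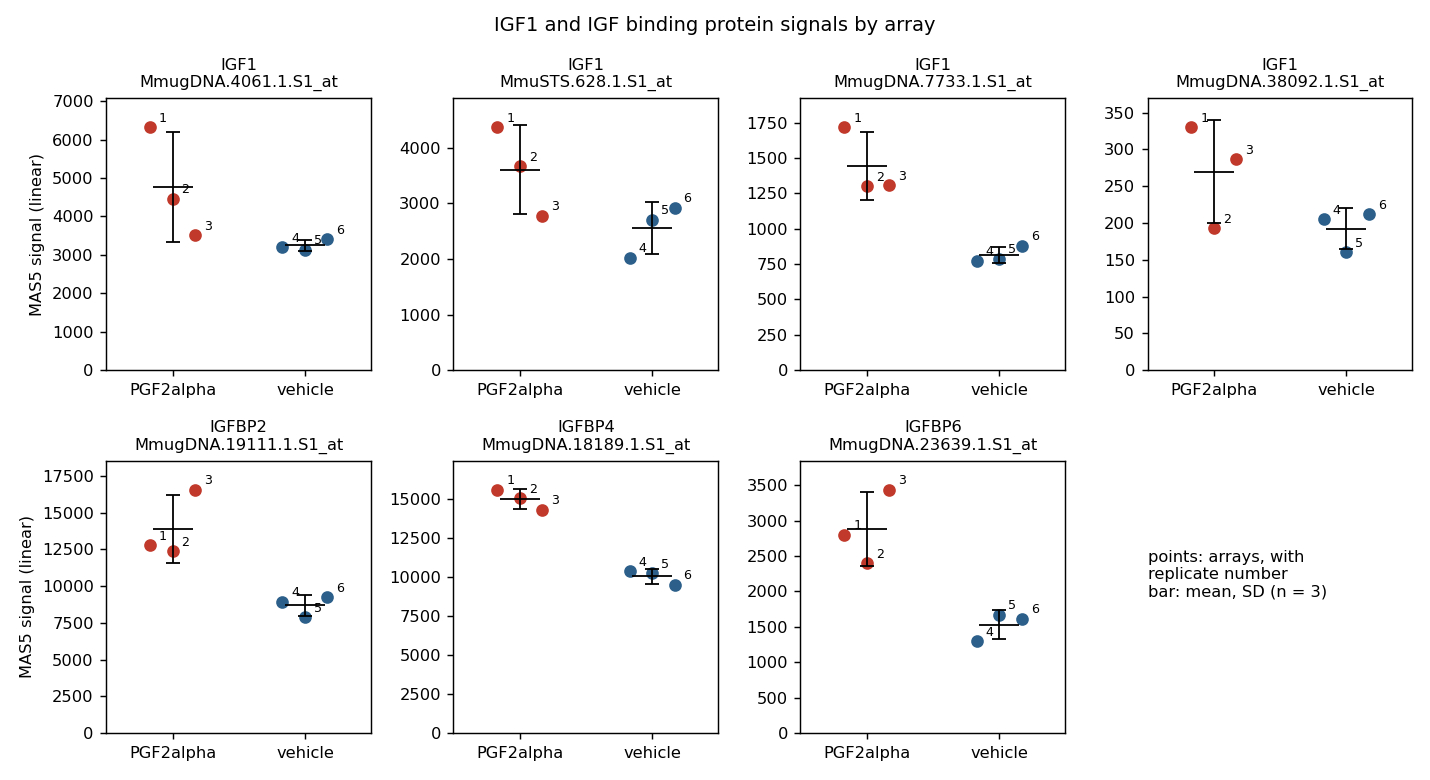
Deposited MAS5 signal (linear, vertical axis from 0) of the 7 probe sets in the 3 PGF2alpha arrays (red) and the 3 vehicle arrays (blue), with the replicate number beside each point and the mean with its SD (n = 3) as a bar. The groups are apart in IGFBP2, IGFBP4, IGFBP6 and the IGF1 probe sets MmugDNA.4061.1.S1_at and MmugDNA.7733.1.S1_at, and they overlap in the other IGF1 probe sets.

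The ligand was measured by 4 probe sets whose levels are not comparable with each other, so each is given alone. The brightest, MmugDNA.4061.1.S1_at, read 6326, 4465 and 3511 on PGF2alpha replicates 1, 2 and 3, against 3201, 3134 and 3406 on vehicle replicates 4, 5 and 6. The vehicle arrays were close together, the PGF2alpha arrays were spread widely, and the lowest PGF2alpha array lay just above the highest vehicle array. Its means were 4767 ± 1432 after PGF2alpha and 3247 ± 142 after vehicle (SD, n = 3 each), a log2 fold change of 0.51 (SE 0.203). PGF2alpha replicate 1 carried much of this value, which was 0.28 without that array.

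MmuSTS.628.1.S1_at, the second IGF1 probe set by brightness, read 4369, 3664 and 2780 on PGF2alpha replicates 1, 2 and 3, against 2023, 2707 and 2921 on vehicle replicates 4, 5 and 6. The groups overlapped, because PGF2alpha replicate 3 lay below vehicle replicate 6. Its log2 fold change was 0.49 (SE 0.204), from means of 3605 ± 796 after PGF2alpha and 2550.3 ± 469 after vehicle (SD, n = 3 each).

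MmugDNA.7733.1.S1_at gave the clearest separation of the IGF1 probe sets. It read 1719, 1302 and 1308 on PGF2alpha replicates 1, 2 and 3, against 773, 789.5 and 879 on vehicle replicates 4, 5 and 6. Every PGF2alpha array lay above every vehicle array, with the lowest PGF2alpha array at 1.48 times the highest vehicle array. Its means of 1443 ± 239 after PGF2alpha and 814 ± 57.4 after vehicle (SD, n = 3 each) gave a log2 fold change of 0.79 (SE 0.163).

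The dimmest IGF1 probe set, MmugDNA.38092.1.S1_at, read 330.4, 193 and 286 on PGF2alpha replicates 1, 2 and 3, against 205, 160.5 and 212 on vehicle replicates 4, 5 and 6. PGF2alpha replicate 2 lay among the vehicle arrays, while PGF2alpha replicates 1 and 3 lay above them. Its log2 fold change was 0.39 (SE 0.235) and was 0.25 without PGF2alpha replicate 1. Of the 9 pairs of a PGF2alpha and a vehicle array, the PGF2alpha array was the higher in 7 for this probe set, in 8 for MmuSTS.628.1.S1_at and in 9 for the other two IGF1 probe sets.

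IGFBP2 (MmugDNA.19111.1.S1_at) read 12769, 12386 and 16560.1 on PGF2alpha replicates 1, 2 and 3, against 8949, 7866 and 9244 on vehicle replicates 4, 5 and 6. The groups did not overlap, and PGF2alpha replicate 3 was the highest array. The means were 13905 ± 2307 after PGF2alpha and 8687 ± 725 after vehicle (SD, n = 3 each), a log2 fold change of 0.67 (SE 0.148).

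IGFBP4 (MmugDNA.18189.1.S1_at) read 15595, 15055 and 14318 on PGF2alpha replicates 1, 2 and 3, against 10387, 10236 and 9516 on vehicle replicates 4, 5 and 6. Its arrays were even in both groups, with a coefficient of variation of 4.28% after PGF2alpha, the lowest of the 7 probe sets there, and 4.63% after vehicle, and its lowest PGF2alpha array stood at 1.38 times its highest vehicle array. The means were 14989 ± 641 after PGF2alpha and 10046 ± 465 after vehicle (SD, n = 3 each), a log2 fold change of 0.58 (SE 0.114).

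IGFBP6 (MmugDNA.23639.1.S1_at) read 2805, 2401 and 3438 on PGF2alpha replicates 1, 2 and 3, against 1293, 1674 and 1616 on vehicle replicates 4, 5 and 6. Every PGF2alpha array lay above every vehicle array, the lowest being 1.43 times the highest vehicle array. The means were 2881 ± 523 after PGF2alpha and 1528 ± 205 after vehicle (SD, n = 3 each), and the log2 fold change of 0.89 (SE 0.177) was the largest of the members.

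Within hybridisation run 1, with a pair of arrays in each group, the log2 fold changes were 0.52, 0.31, 0.82 and 0.63 for the IGF1 probe sets from brightest to dimmest, 0.77 for IGFBP2, 0.60 for IGFBP4 and 0.90 for IGFBP6. Within run 2, which held 1 array of each group, they were 0.48, 0.84, 0.72 and -0.07 for the IGF1 probe sets in the same order, 0.47 for IGFBP2, 0.53 for IGFBP4 and 0.87 for IGFBP6. IGFBP4, IGFBP6 and the IGF1 probe set MmugDNA.7733.1.S1_at thus stood close between the runs, and the direction of the dimmest IGF1 probe set rested on run 1. The values of MmugDNA.4061.1.S1_at were also close, but its run 1 value averaged unlike arrays. PGF2alpha replicates 1 and 3 lay 0.95 and 0.11 above the mean of all vehicle arrays.

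**Figure D2:**
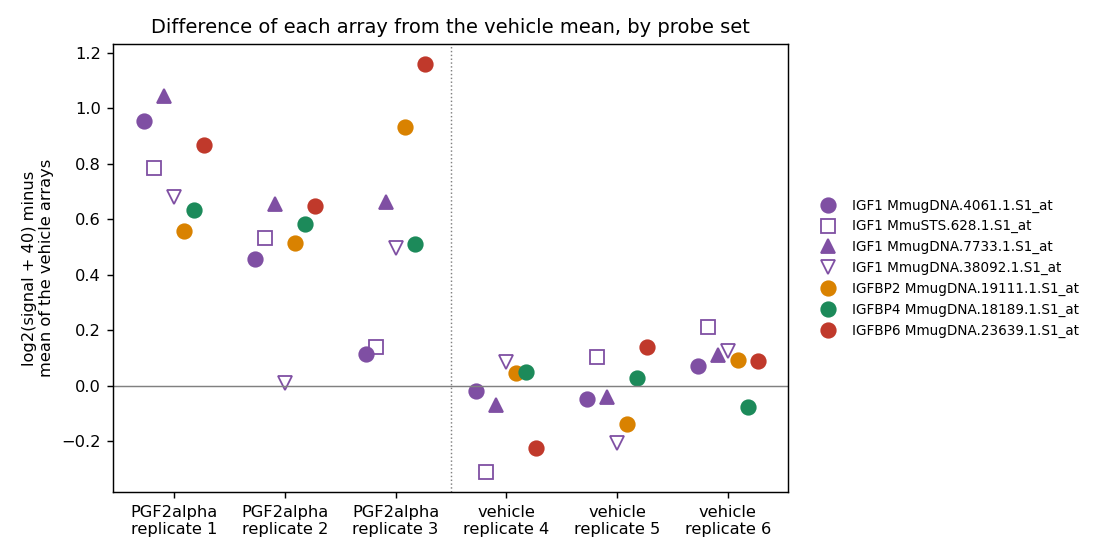
Difference of each array from the mean of the 3 vehicle arrays (vertical axis, log2(signal + 40)), for the 7 probe sets, with arrays along the horizontal axis, PGF2alpha to the left of the dotted line and vehicle to the right. Open symbols mark the IGF1 probe sets whose groups overlap. The IGF1 probe sets are highest on PGF2alpha replicate 1, while IGFBP2 and IGFBP6 are highest on PGF2alpha replicate 3.

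The members did not follow one order over the PGF2alpha arrays. Relative to the vehicle mean, the IGF1 probe sets lay 0.95, 0.78, 1.04 and 0.68 higher on PGF2alpha replicate 1, from brightest to dimmest, and each was at its highest there. On PGF2alpha replicate 3 the 2 brighter of them lay only 0.11 and 0.14 above the vehicle mean, while IGFBP2 and IGFBP6 reached their highest values there, at 0.93 and 1.16. IGFBP4 ran from 0.51 to 0.63 over the PGF2alpha arrays. The vehicle arrays lay between -0.31 and 0.21 over all members. Their values centre on their own mean by construction, so they are not set against those of the PGF2alpha arrays.

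Replicate spread was set beside that of all tested probe sets. In the vehicle group the SD of the log2 values was below their median of 0.22 in 6 of the 7 members, MmuSTS.628.1.S1_at being the exception. After PGF2alpha it was below the corresponding median of 0.23 in 3 of the 7, IGFBP4 at 0.06, MmugDNA.7733.1.S1_at at 0.22 and IGFBP2 at the median to that precision. The brightest IGF1 probe set had the widest spread after PGF2alpha, with an SD of 0.42.

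Likeness of profiles was measured as the mean absolute difference of log2(signal + 40) over the 6 arrays after each gene had been centred on its own mean, among 9980 genes that were each read from their brightest tested probe set. The median distance of a gene was 0.361 from IGF1, 0.385 from IGFBP2, 0.339 from IGFBP4 and 0.480 from IGFBP6, so distances from different members are not on the same footing. The genes nearest to IGF1 were IKBIP (0.0621), DCAF8 (0.0716), the lens filament protein gene BFSP1 (0.0718), the scaffold gene DLG1 (0.0727) and TEK, the angiopoietin receptor of endothelium (0.0743). Nearest to IGFBP2 were CEP68 (0.0691), TBC1D2B (0.0722), TSPAN17 (0.0783), the scavenger receptor gene SCARA3 (0.0789) and the extracellular matrix protein gene ECM1 (0.086). IGFBP4 had the closest neighbours, with the dipeptidase gene CNDP2 (0.0322), endoglin ENG (0.0415), HSPBP1 (0.0446), the galactosylceramidase gene GALC (0.0517) and LOC705016 (0.0522). IGFBP6 was nearest to KIRREL1 (0.0967), CXXC5 (0.0971), the oncostatin M receptor gene OSMR (0.102), SCARA3 (0.106) and the glypican gene GPC1 (0.106). SCARA3 thus stood among the nearest genes of both IGFBP2 and IGFBP6. Among the members themselves, IGFBP2 and IGFBP6 were 0.167 apart, IGFBP2 and IGFBP4 0.166, and IGFBP4 and IGFBP6 0.191. IGF1 lay 0.178, 0.246 and 0.285 from IGFBP4, IGFBP2 and IGFBP6, which ranked 342, 1634 and 2670 of the 9979 genes compared. From IGFBP4, IGFBP2 and IGFBP6 ranked 812 and 1246, and from IGFBP6, IGFBP2 and IGFBP4 ranked 42 and 92. Many other genes were thus nearer to a member than the other members were. The 4 IGF1 probe sets were 0.147 to 0.281 apart from each other. These distances share the same 6 arrays and the same group difference, and they carry no test.

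The rest of the IGF axis was taken as a list of 57 genes, which held other ligands, receptors, binding proteins, their proteases, and the signalling genes of growth hormone and of the IGF receptor. The array named 48 of them, of which 42 were tested and 6 stayed below the brightness filter (at or above the array median in at least 3 of the 6 arrays). By limma with Benjamini-Hochberg adjustment over all 26944 probe sets, 1 of the 42 genes rose and 0 fell, where 3.81% of all tested genes rose and 2.32% fell. At an unadjusted p under 0.05 there were 6 higher and 6 lower genes of the 42, where 24.4% of all tested genes lay past that threshold in either direction, 1236 of 9980 higher and 1196 lower. The median log2 fold change of the 42 was -0.03, and that of all 9980 genes was -0.02.

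**Figure D3:**
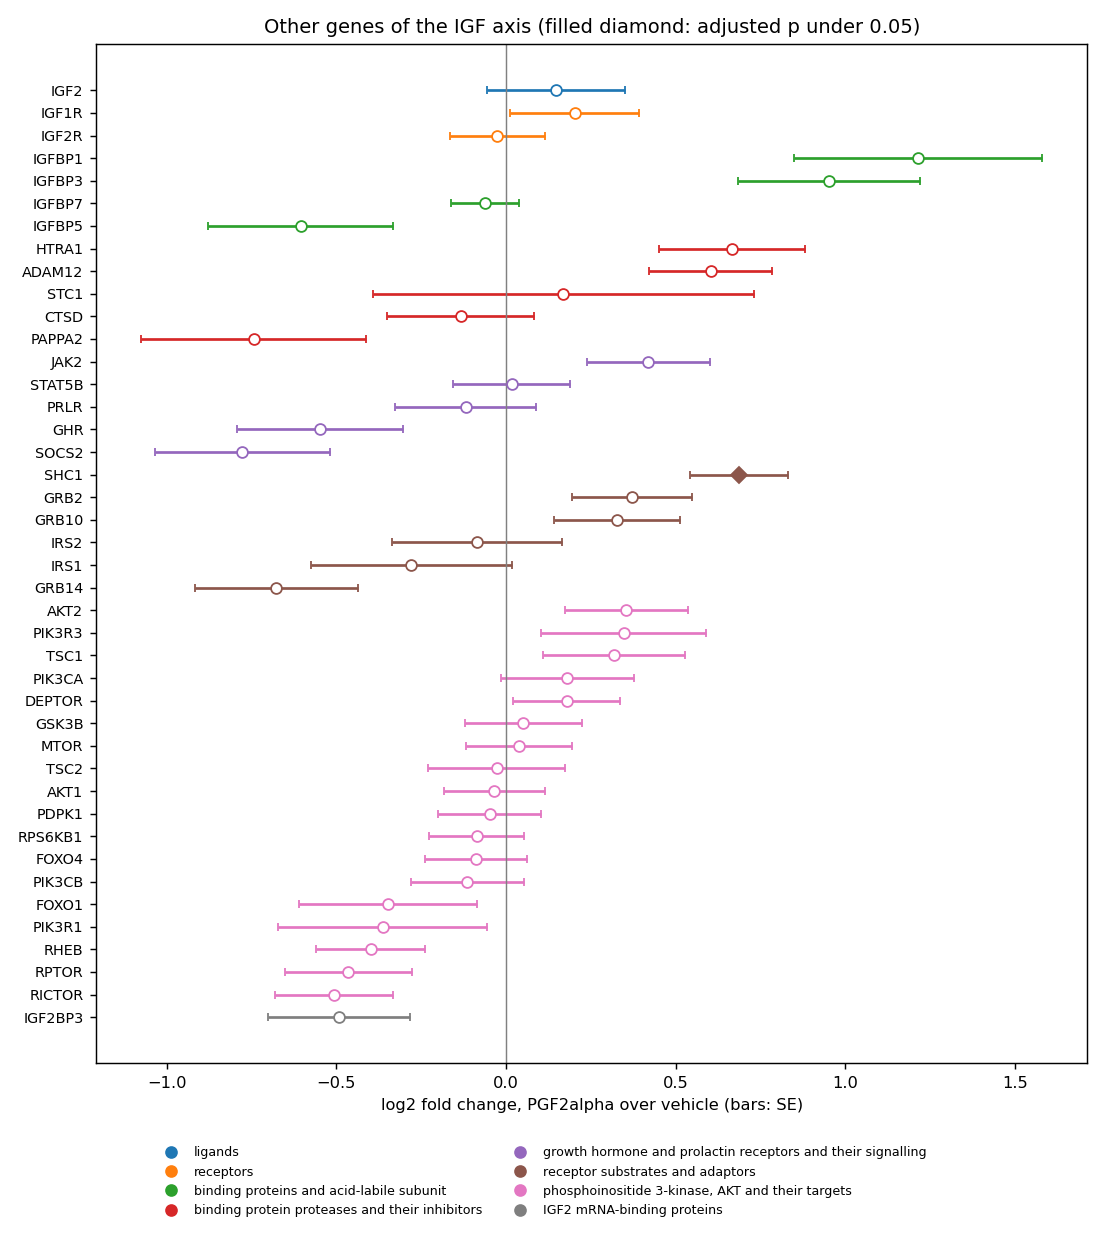
Log2 fold change of PGF2alpha over vehicle with its SE (horizontal axis) for the 42 tested genes of the IGF axis other than the members, coloured by role. SHC1 is the gene past an adjusted p of 0.05 (filled diamond, 0.69), and IGFBP1 (1.21) and IGFBP3 (0.95) have the largest positive values.

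Of the 4 other binding proteins tested, 0 passed by limma, and at an unadjusted p under 0.05 there were 2 higher and 0 lower. IGFBP1, which is made by decidua and liver, read 27079, 44269 and 34942 on PGF2alpha replicates 1, 2 and 3, against 25703, 7947 and 16340 on vehicle replicates 4, 5 and 6. The groups did not overlap, but vehicle replicate 4 nearly reached PGF2alpha replicate 1, and the vehicle arrays were spread widely. Its log2 fold change of 1.21 (SE 0.366) did not pass (limma adjusted p = 0.0959). It passed with the run as a block (limma adjusted p = 0.0402) and without vehicle replicate 4 (1.60, limma adjusted p = 0.0414), with adjusted p from 0.0402 to 0.273 over the alternatives, and it was 1.43 within run 1 and 0.78 within run 2. Without vehicle replicate 5, the lowest array, the log2 fold change was 0.76.

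IGFBP3, the main IGF carrier of serum, read 5024, 7568 and 6211 on PGF2alpha replicates 1, 2 and 3, against 2077, 4487 and 3440 on vehicle replicates 4, 5 and 6. All PGF2alpha arrays lay above all vehicle arrays, and the log2 fold change was 0.95 (SE 0.268), which did not pass (limma adjusted p = 0.0783, 0.0507 to 0.238 over the alternatives). It was 0.50 within run 1 and 1.85 within run 2, which held 1 array a group, and 0.65 without vehicle replicate 4.

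IGFBP5, which also binds extracellular matrix, lay the other way, with 888, 892 and 1598 on PGF2alpha replicates 1, 2 and 3, against 2113, 1199 and 1831 on vehicle replicates 4, 5 and 6. The groups overlapped at PGF2alpha replicate 3 and vehicle replicate 5, and the log2 fold change of -0.61 (SE 0.273) did not pass (limma adjusted p = 0.246). IGFBP7, a related protein of low affinity for IGF, read 49752 ± 2004 after PGF2alpha and 51926 ± 999 after vehicle (SD, n = 3 each), with a log2 fold change of -0.06 (SE 0.0992, limma adjusted p = 0.78). Its other 5 probe sets ran from -0.27 to 0.41, and all 6 overlapped between the groups. IGFALS, the acid-labile subunit of the serum complex, stayed below the filter. IGFBP5 and IGFBP7 were named after their values had been seen.

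**Figure D4:**
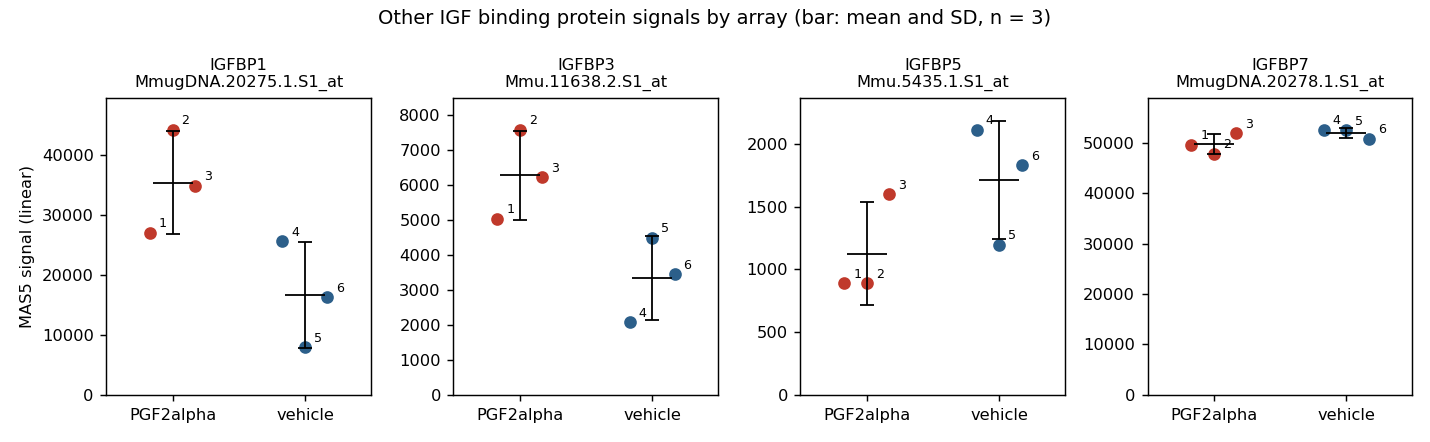
Deposited MAS5 signal (linear, vertical axis from 0) of IGFBP1, IGFBP3, IGFBP5 and the brightest IGFBP7 probe set in the 3 PGF2alpha arrays (red) and the 3 vehicle arrays (blue), with replicate numbers and the mean with its SD (n = 3). IGFBP1 and IGFBP3 lie higher after PGF2alpha with wide spread, IGFBP5 overlaps, and IGFBP7 reads about the same in both groups.

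Neither the second ligand nor the receptors passed. IGF2, the ligand that IGFBP6 prefers, averaged 1053 ± 185 after PGF2alpha and 951 ± 197 after vehicle (SD, n = 3 each), a log2 fold change of 0.15 (SE 0.203, limma adjusted p = 0.741). IGF1R, the signalling receptor, had a log2 fold change of 0.20 (SE 0.19, limma adjusted p = 0.597), and its other two probe sets stood at 0.11 and 0.28. The value for IGF1R was 0.35 without vehicle replicate 5 and 0.05 without vehicle replicate 6. IGF2R, which clears IGF2 and sorts lysosomal enzymes, averaged 5059 ± 383 after PGF2alpha and 5162 ± 564 after vehicle (SD, n = 3 each), a log2 fold change of -0.03 (SE 0.139, limma adjusted p = 0.942) whose sign turned with median scaling. The intervals are wide at this number of arrays, so these values do not show that the levels were equal.

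Among the proteases that cleave binding proteins, HTRA1 and ADAM12 had probe sets that rose. HTRA1, a secreted serine protease, was read by 3 probe sets. The brightest, which stood for the gene, averaged 14113 ± 3932 after PGF2alpha and 8722 ± 1472 after vehicle (SD, n = 3 each) and had a log2 fold change of 0.67 (SE 0.215), which did not pass (limma adjusted p = 0.114, and 0.0258 without PGF2alpha replicate 3, from 0.0258 to 0.296 over the alternatives). The other two rose, MmugDNA.34787.1.S1_at by 1.66 (SE 0.265, limma adjusted p = 0.0126) and MmugDNA.15595.1.S1_at by 1.76 (SE 0.297, limma adjusted p = 0.0156).

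MmugDNA.34787.1.S1_at of HTRA1 read 773, 1208 and 693 on PGF2alpha replicates 1, 2 and 3, against 325, 169 and 269 on vehicle replicates 4, 5 and 6, with the groups well apart. Its call was lost without PGF2alpha replicate 2 (limma adjusted p = 0.0573, with 0.00703 as the lowest over the alternatives). MmugDNA.15595.1.S1_at, of which 2 vehicle arrays lay below their array medians, lost its call without PGF2alpha replicate 1 or 2 or vehicle replicate 5 or 6 (limma adjusted p of 0.063, 0.0758, 0.0501 and 0.0572). Within runs 1 and 2 they stood at 1.60 and 1.77, and at 1.85 and 1.56.

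ADAM12, a metalloprotease that cleaves IGFBP3 and IGFBP5, averaged 3567 ± 700.2 after PGF2alpha and 2315 ± 286 after vehicle (SD, n = 3 each) in its brightest probe set, a log2 fold change of 0.60 (SE 0.181), which did not pass (limma adjusted p = 0.0939). It passed with array weights (limma adjusted p = 0.0449) and without PGF2alpha replicate 3 (limma adjusted p = 0.0299), and the adjusted p ran up to 0.285 over the alternatives. MmuSTS.2710.1.S1_at, another of its 3 probe sets, rose by 0.90 (SE 0.202, limma adjusted p = 0.0393), a call that held without PGF2alpha replicate 3 and was lost when any other array was left out (limma adjusted p from 0.0649 to 0.133), without the filter (0.0587) and without the variance trend (0.0757). Counted by probe set, 4 of 85 tested probe sets of the list rose, namely these 3 and that of SHC1, and 0 fell, where 3.02% of all tested probe sets rose and 1.99% fell. PAPPA2, a pappalysin that cleaves IGFBP5, averaged 80 ± 36.1 after PGF2alpha and 156 ± 32.5 after vehicle (SD, n = 3 each), without overlap. Its log2 fold change of -0.74 did not pass (SE 0.331, limma adjusted p = 0.24), and it passed the brightness filter through the vehicle arrays alone. PAPPA2 was named after its values had been seen. PAPPA, the protease of IGFBP4, is not analysed here.

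SHC1, an adaptor that links receptor tyrosine kinases such as IGF1R to RAS and the MAP kinases, was the gene of the list that rose. MmugDNA.34650.1.S1_at read 11531, 13000.5 and 9989 on PGF2alpha replicates 1, 2 and 3, against 6716, 8001 and 6638 on vehicle replicates 4, 5 and 6, so the groups did not overlap. The log2 fold change was 0.69 (SE 0.145, limma adjusted p = 0.0314), 0.56 within run 1 and 0.95 within run 2. The call was lost without PGF2alpha replicate 1 (limma adjusted p = 0.102) or 2 (0.116), without vehicle replicate 4 (0.0976) or 6 (0.12), without the filter (0.0656) and without the variance trend (0.081), and the lowest adjusted p over the alternatives was 0.0158. The other SHC1 probe set had a log2 fold change of 0.57 and overlapping groups (SE 0.273, limma adjusted p = 0.277).

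The other adaptors and the downstream kinases gave no call. GRB14, an adaptor that restrains insulin receptor signalling, had a log2 fold change of -0.68 (SE 0.24, limma adjusted p = 0.146), and it passed without vehicle replicate 4 (-0.98, limma adjusted p = 0.0282, up to 0.386 over the alternatives) and was -0.45 without vehicle replicate 6. Of 18 genes of phosphoinositide 3-kinase, AKT and their targets, 0 passed by limma, with 0 higher and 3 lower at an unadjusted p under 0.05, where 1196 of the 9980 genes tested were lower. The nearest were RICTOR, a subunit of an mTOR complex that phosphorylates AKT, at -0.51 (SE 0.174, limma adjusted p = 0.135), and the GTPase RHEB, an activator of mTOR, at -0.40 (SE 0.16, limma adjusted p = 0.194). Of the other RHEB probe sets, MmugDNA.42144.1.S1_s_at stood at -0.51 without overlap, and MmugDNA.13737.1.S1_at at 0.28 with overlapping groups. The other RICTOR probe set stood at -0.55 without overlap (SE 0.177, limma adjusted p = 0.11). In the growth hormone branch SOCS2, a feedback inhibitor of growth hormone signalling, averaged 771 ± 77 after PGF2alpha and 1418 ± 568 after vehicle (SD, n = 3 each), a log2 fold change of -0.78 (SE 0.258, limma adjusted p = 0.124) that was -0.49 without vehicle replicate 4. The kinase gene JAK2 stood at 0.42 (SE 0.181, limma adjusted p = 0.227) and at 0.28 without PGF2alpha replicate 1. Its other probe sets stood at -0.03 and 0.18, with overlapping groups. IGF2BP3, which binds IGF2 mRNA, stood at -0.49 (SE 0.209, limma adjusted p = 0.218). The probe sets of SOCS2, RHEB and IGF2BP3 bear a suffix that Affymetrix gives to sets matching several transcripts. The within-run values were -0.49 and -1.34 for SOCS2, -0.93 and -0.18 for GRB14 and -0.69 and -0.15 for RICTOR in runs 1 and 2.

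Summed markers of macrophages and neutrophils were higher after PGF2alpha, those of steroidogenic cells were lower, and the other lists gave few calls or none. Of 17 macrophage markers the array named 13, of which 7 rose and 0 fell. One of the 7, MARCO, passed the brightness filter through the PGF2alpha arrays alone, so its call is not independent of the filter. The summed signal of the 13 lay between 27780.1 and 34160.3 after PGF2alpha and between 8853 and 14880 after vehicle. Summed markers of steroidogenic cells lay between 80011 and 145121 after PGF2alpha and between 163161 and 195135 after vehicle, with 2 of 9 lower and 0 higher. Of 10 neutrophil markers 8 had a probe set, 4 were bright enough to test and those 4 rose. The sum of the 8 lay between 12437 and 30849 after PGF2alpha and between 3645 and 6856 after vehicle. S100A8 and S100A9 were at or above the array median on 4 of 6 arrays and MMP9 on 5, all PGF2alpha arrays among them. Their calls are thus not independent of the filter. Of the untested 4, ELANE (log2 fold change -0.61) and MPO (-0.28) lay lower after PGF2alpha, and CSF3R (1.09) and S100A12 (0.46) higher. The median log2 fold change of the list was 3.59, and 1.22 without the filter. For 9 fibroblast and stroma markers 1 rose and 1 fell, and the sums overlapped, with 77976 to 92976 after PGF2alpha and 59657 to 80741 after vehicle. The median log2 fold change of these 9 was -0.13, the other direction from the sums, of which COL1A2 and DCN made up a large part. Endothelial sums also overlapped, at 25275 to 36157 after PGF2alpha and 26223 to 29608 after vehicle, with 1 of 10 higher. Of 7 pericyte and smooth muscle markers, 1 lymphocyte marker and 3 red cell markers tested, 0 passed by limma. No marker with a probe set read 0 on all 6 arrays. Their part in the values of the members was not tested.

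**Figure D5:**
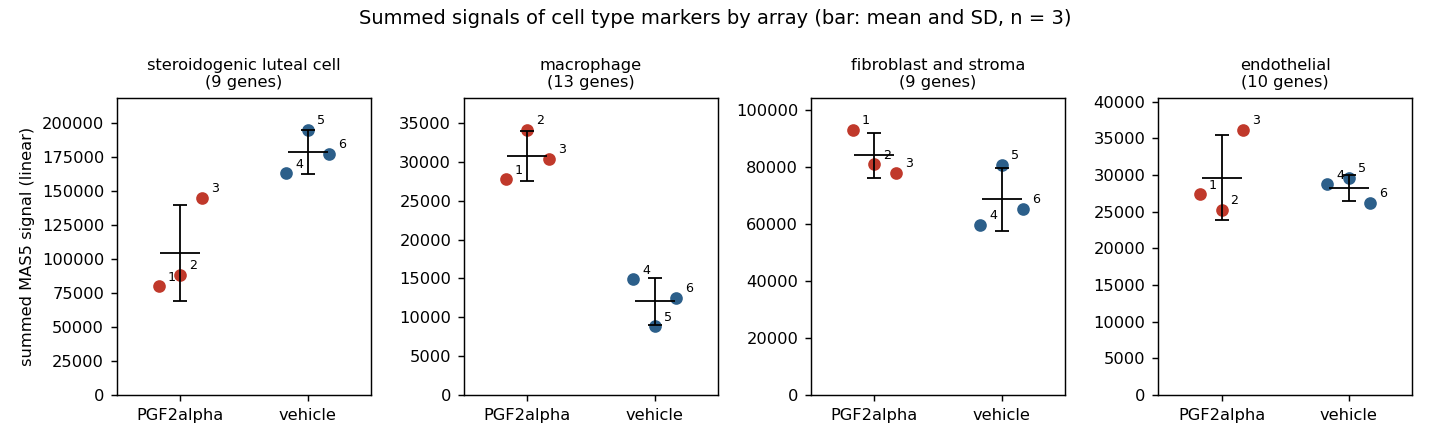
Summed deposited MAS5 signal (linear, vertical axis from 0) of 4 marker lists in the 3 PGF2alpha arrays (red) and the 3 vehicle arrays (blue), 1 probe set for each gene, with replicate numbers and the mean with its SD (n = 3). Macrophage sums are higher and steroidogenic sums lower on every PGF2alpha array than on any vehicle array, and fibroblast and endothelial sums overlap.

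Among the PGF2alpha arrays, the steroidogenic sum was 80011, 88437 and 145121 on replicates 1, 2 and 3, while the macrophage sum was 27780.1, 34160.3 and 30413. The array with the highest steroidogenic sum, replicate 3, was also the one where the 2 brighter IGF1 probe sets were lowest and where IGFBP2 and IGFBP6 were highest. The array with the lowest steroidogenic sum, replicate 1, had the highest signal in all 4 IGF1 probe sets, which read the same gene. The 2 dimmer IGF1 probe sets were lowest on replicate 2 and not on replicate 3. MmugDNA.7733.1.S1_at read 1302 on replicate 2 and 1308 on replicate 3, and MmugDNA.38092.1.S1_at read 193 and 286. Among the vehicle arrays, the steroidogenic sum was 163161, 195135 and 177436 on replicates 4, 5 and 6. On replicate 5, with the highest sum, MmugDNA.4061.1.S1_at and MmugDNA.38092.1.S1_at were lowest and IGFBP6 was highest, but IGFBP2 was lowest (7866). On replicate 4, with the lowest sum, MmuSTS.628.1.S1_at and MmugDNA.7733.1.S1_at were lowest (2023 and 773). Between the groups, IGFBP2 and IGFBP6 were higher where the sum was lower. These are orders of 3 arrays in each group, and a link between the sums and the members was not tested.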

How the data were processed

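Biotin-labelled material prepared from total RNA of 6 corpora lutea samples was hybridised to Affymetrix Rhesus arrays. The authors deposited 1 intensity per probe set and array, on a linear scale, computed by MAS5 per the labels' descriptions. Detection calls are not given in the sources used here. Each array had a trimmed mean of 500.0, so the table was used as already scaled. Symbols came from a platform annotation that can be old, 1 symbol for 24969 probe sets. The 99 control probe sets were left out of tests. Values were taken as log2(signal + 40), and a probe set was tested if at or above its array median in at least 3 of 6 arrays. PGF2alpha was compared with vehicle by limma 3.58.1 in R 4.3.3 (eBayes with a variance trend), two-sided, with Benjamini-Hochberg adjustment over 26944 probe sets and a threshold of 0.05. The fit was tested on simulated data. A gene was read from its tested probe set of highest mean signal.

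Named outside the members were the genes of the IGF axis past the threshold, the 2 of smallest p in each role group, and the 5 genes nearest to each member. The members and all lists were chosen with earlier results of these data known. The number of arrays limits the precision. Alternatives were quantile normalization, median scaling, pseudocounts of 10 and 160, no filter, a filter at the 70th percentile, no variance trend, array weights, the hybridisation run as a block, and each array left out.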

Additional observations from a re-analysis of the deposited data

How the results depend on the processing

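All 7 member probe sets kept a positive log2 fold change under every normalization, pseudocount, block and left-out array tried, from 0.25 to 1.01. The members were chosen as higher in this comparison, so a kept sign is no support. The block could not move a log2 fold change, because both groups were split alike over the runs. Within hybridisation run 2 (1 array a group), MmuSTS.628.1.S1_at of IGF1 moved to 0.84, IGFBP2 to 0.47 and MmugDNA.38092.1.S1_at of IGF1 to -0.074. The number of called probe sets was 1351, against 826 without the filter and 669 without the variance trend, and from 223 to 1903 with 1 array left out, the lowest without PGF2alpha replicate 2. The count of IGF axis genes that rose was 1, against 0 without the filter or the trend, 2 with array weights or the run as a block, and 0 to 3 with 1 array left out. Counted by probe set, 4 rose. The count of genes that fell was 0, and 0 to 1 with 1 array left out. IGF2R turned to 0.022 with median scaling and ran from -0.115 to 0.039 with 1 array left out, and IGF2 ran from -0.028 to 0.285, none past the threshold. The cause of these shifts was not tested. No paired analysis was possible because the groups share no replicate number.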
